A study of Rattus norvegicus with 4 samples.

Results

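The guide arms of the miR-17 to miR-92a cluster and of its relative, the miR-106b-25 cluster, with rno-miR-92b-3p, were followed in the RNA of extracellular vesicles, small membrane particles shed by cells. The 10 mature miRNAs were taken by name (rno-miR-17-5p, rno-miR-18a-5p, rno-miR-19a-3p, rno-miR-19b-3p, rno-miR-20a-5p, rno-miR-92a-3p, rno-miR-92b-3p, rno-miR-106b-5p, rno-miR-93-5p and rno-miR-25-3p), and all 10 are among the 758 rat miRNAs on the array, with 22 probes in 160 spots.

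The vesicles came from cultured bone marrow macrophages of male wild-type Sprague-Dawley rats, hybridised to 4 single-colour arrays. M0_sham (n = 2 arrays) holds vesicles of resting macrophages from sham-operated rats. For M1_OA (n = 2 arrays), the donor rats had osteoarthritis (OA) of the right knee, made by joint surgery (DMM with ACLT, which unsettle the meniscus and sever a cruciate ligament), and their macrophages were polarised for 48 hours with LPS at 100 ng/mL together with IFN-γ at 20 ng/mL, before ATP (5 mM) was added for 60 minutes. Surgery was done at 8 weeks of age and marrow was taken 8 weeks later. All cells were sorted as CD45 and CD11b positive and grown with 20 ng/mL M-CSF for 7 days, the M1_OA cells being stimulated from that state on. The groups thus differ in surgery, polarisation and ATP at once. Whether replicate arrays stem from different animals or cultures is not stated, and p-values here measure only the spread between arrays, which may be technical. The protocols give 0.2 µg RNA for each array, so signals refer to an amount of RNA. Neither the number of vesicles nor the miRNA per vesicle can be read from them.

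The miR-17 to miR-92a cluster is a polycistron: several hairpins are cut from 1 primary transcript, and each is then processed on its own, so arms made from the same transcript can end at different levels. The cluster is induced by Myc and E2F factors and is known for promoting proliferation and survival. miR-106b-25 is its paralogue inside the replication gene Mcm7. The arms repress targets such as Bcl2l11 (the miR-92 and miR-25 group, miR-17 group) and Cdkn1a (miR-17 group), and in human and mouse macrophages miR-17 and miR-20a target the inhibitory receptor SIRPα. Vesicles carry a selection of a cell's miRNAs, so a level in vesicles is not a level in the cell.

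In the GRCr8 annotation, the 6 hairpins of miR-17 to miR-92a lie within 785 bases on the plus strand of chromosome 15 (chr15:98587848-98588632), in the order Mir17, Mir18a, Mir19a, Mir20a, Mir19b1 and Mir92a1. The 3 hairpins of miR-106b-25 lie within 494 bases on the minus strand of chromosome 12 (chr12:22156641-22157134), all 3 inside the bounds of Mcm7, which is on the same strand. rno-miR-92b-3p comes from a hairpin of its own on chromosome 2. rno-miR-17-5p, rno-miR-19b-3p and rno-miR-92a-3p have a second copy of identical mature sequence on the X chromosome (Mir106a, Mir19b2 and Mir92a2, within 720 bases), so a signal for these 3 cannot be assigned to a locus.

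The mature sequences, from RefSeq (GRCr8), fall into 4 seed groups. The seed, bases 2 to 8 from the 5′ end, pairs with target transcripts and is in capitals. The first 3 share AUUGCAC, rno-miR-20a-5p stands for the 4 arms with AAAGUGC (with rno-miR-17-5p, rno-miR-106b-5p and rno-miR-93-5p), rno-miR-19b-3p for the 2 with GUGCAAA, and rno-miR-18a-5p is alone with AAGGUGC.
rno-miR-92a-3p: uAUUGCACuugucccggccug
rno-miR-92b-3p: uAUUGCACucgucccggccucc
rno-miR-25-3p: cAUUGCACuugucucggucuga
rno-miR-20a-5p: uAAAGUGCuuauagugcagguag
rno-miR-19b-3p: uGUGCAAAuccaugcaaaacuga
rno-miR-18a-5p: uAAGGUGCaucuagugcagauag
Counted from the 5′ end, rno-miR-92a-3p and rno-miR-92b-3p differ by U10C and G21C, and rno-miR-92a-3p and rno-miR-25-3p by U1C, C14U and C18U, the base of rno-miR-92a-3p first.

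All 22 probes are exact reverse complements that start at the 3′ end of the miRNA and reach different distances towards the seed. Each miRNA except rno-miR-92b-3p has 2 probes that differ by 1 base at the end nearest the seed, with 8 spots each, and rno-miR-92b-3p has 4 of 10 to 13 bases, with 4 spots each. The pair for rno-miR-92a-3p and the longest probes for rno-miR-20a-5p and rno-miR-25-3p are shown because the signals below rest on them. The capital marks the last base.
rno-miR-92a-3p, 16 bases: caggccgggacaagtG
rno-miR-92a-3p, 17 bases: caggccgggacaagtgC
rno-miR-20a-5p, 19 bases: ctacctgcactataagcaC
rno-miR-25-3p, 18 bases: tcagaccgagacaagtgC

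Of the 758 miRNAs, 23 and 13 were well above background in M0_sham (replicates 1 and 2), against 42 and 45 in M1_OA. The call needs more than 0.5 of the spots of at least 1 probe to carry the scanner software's flag. No spot was saturated (0 in all). The file headers give 2 scan sessions, one for each group, and the session cannot be told apart from the group. Among myeloid markers, rno-miR-223-3p had signals of 23.1 and 16.6 in M0_sham and 59.7 and 43.7 in M1_OA (well above background on all arrays but M0_sham replicate 2), while neither rno-miR-142-3p nor rno-miR-142-5p passed the call on any of the 4. Of the 19 markers listed for red cells, stroma, epithelium, endothelium, muscle, liver and serum, and lymphocytes, 1 (rno-miR-206-3p, on M1_OA replicate 2) was well above background. Over all 758 miRNAs the share called on at least 1 array was 7.26%.

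Of the 10 arms, 1 was well above background on any array: rno-miR-92a-3p. Over the whole array 55 of 758 miRNAs (7.26%) were, so 1 of 10 is near the array's own share. Signals are processed intensities, background-subtracted, in arbitrary units and before any scaling between arrays, and the probes of a miRNA are summed. rno-miR-92a-3p had signals of 10.2 and 7.09 in M0_sham and of 18.3 and 14.6 in M1_OA, replicate 1 first here and below. Both M1_OA arrays and M0_sham replicate 1 passed the call, so it was 1 of 10 arms called on both M1_OA arrays, where 5.28% of the 758 miRNAs were, and 0 of 10 arms were called on both M0_sham arrays, where 1.58% were. On M0_sham replicate 2 it was not, and its signal there lay under the lowest signal of any miRNA called on that array (26.7). The lowest called signal was 7.78 on M0_sham replicate 1, 16.9 on M1_OA replicate 1 and 14.6 on M1_OA replicate 2. On M1_OA replicate 2 it was that of rno-miR-92a-3p itself. In M1_OA too, rno-miR-92a-3p was thus among the dimmest signals called. The unscaled values of the groups do not overlap, with means of 8.65 ± 2.20 in M0_sham and 16.5 ± 2.65 in M1_OA (SD, n = 2 each), a ratio of 1.90.

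The other 5 arms of the miR-17 to miR-92a transcript passed the call on 0 of the 4 arrays. Levels of different probes cannot be set against each other, so what can be compared is whether each arm rose above the background of its own spots. rno-miR-17-5p, the first arm of the transcript, had signals of -6.21 and -9.34 in M0_sham and -9.25 and -10.6 in M1_OA. rno-miR-19b-3p, which shares both its copies with rno-miR-92a-3p, had -6.94 and -10.1 in M0_sham and -5.85 and -6.70 in M1_OA. Signals below 0 mean a spot dimmer than the fitted background surface, and rno-miR-17-5p was below it on every array.

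**Figure D1:**
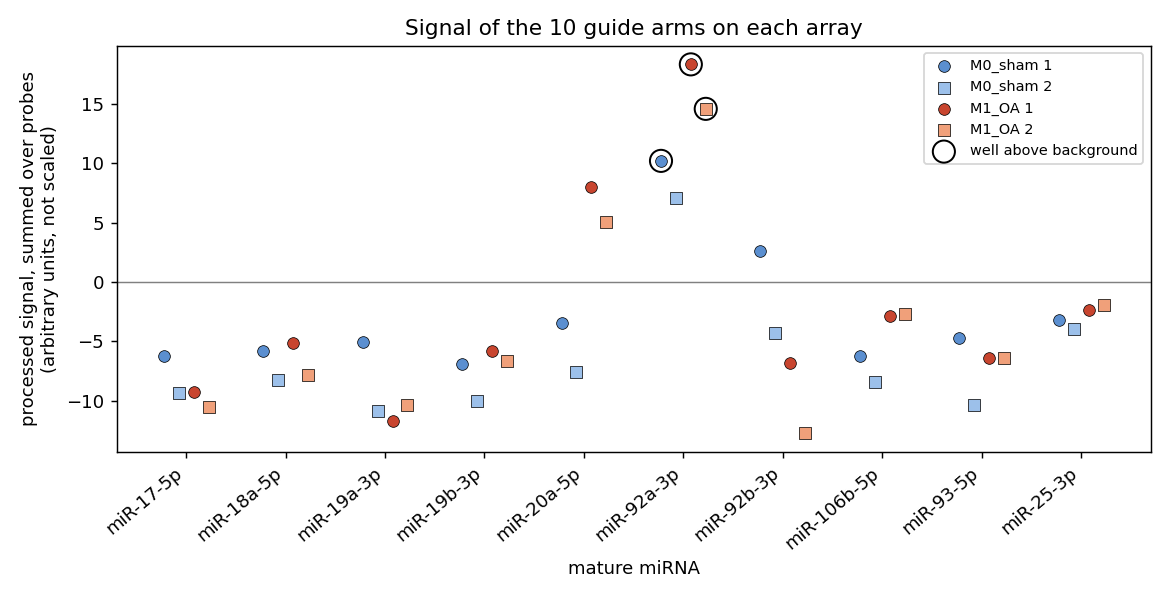
Processed signal of the 10 arms (y axis, arbitrary units, summed over the probes of a miRNA, not scaled between arrays) on the 2 M0_sham and the 2 M1_OA arrays, 1 mark per array, with a ring where the miRNA was well above background. rno-miR-92a-3p has the 3 rings, and 7 of the 10 arms lie below 0 on all 4 arrays.

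rno-miR-18a-5p and rno-miR-19a-3p, the remaining arms below 0, ranged from -8.30 to -5.12 and from -11.7 to -5.06 over the 4 arrays. The arms of miR-106b-25 were likewise not called: rno-miR-106b-5p had -6.26 and -8.39 in M0_sham and -2.86 and -2.67 in M1_OA. rno-miR-93-5p, from the middle hairpin, had -4.71 and -10.4 in M0_sham and -6.41 and -6.44 in M1_OA. rno-miR-25-3p, which has the seed of rno-miR-92a-3p, had -3.25 and -4.00 in M0_sham and -2.34 and -1.95 in M1_OA. None of the 3 had a summed signal above 0. rno-miR-92b-3p, the same-seed arm from chromosome 2, was above 0 on M0_sham replicate 1 alone (2.63, against -4.33 on M0_sham replicate 2 and -6.84 and -12.7 in M1_OA).

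These values are close to what most of the array showed. The median summed signal over all 758 miRNAs was -4.13 and -7.85 on the M0_sham arrays and -5.50 and -7.07 on the M1_OA arrays, and the median of the 9 other arms was -5.06, -8.39, -5.85 and -6.70. By the well-above-background call the 9 were not detected on these arrays, which does not show that the vesicles lacked them. In the authors' deposited table of log2 values, the 9 stood at its floor (-3.32) in all 4 columns, and rno-miR-92a-3p was above it in all 4.

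The signal of rno-miR-92a-3p came from 1 of its 2 probes. The 8 spots of the 17-base probe ran from 6.83 to 12.0 (median 9.83) on M0_sham replicate 1 and from 6.86 to 10.71 (median 7.35) on M0_sham replicate 2. They ran from 15.3 to 28.9 (median 18.99) on M1_OA replicate 1 and from 9.09 to 23.4 (median 15.96) on M1_OA replicate 2. All 8 spots passed the scanner software's test for a signal above the local background on every array. The stricter flag, well above background, was carried by 7, 0, 8 and 6 of the 8 spots, in the same order of arrays.

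The 16-base probe, which lacks the C opposite base 5 of the miRNA, had spot medians of 0.189 and -1.15 in M0_sham and -1.35 and -2.001 in M1_OA, and 0 of its 8 spots were well above background on any array. Its means over unmarked spots (0.503, -1.02, -0.884 and -1.86) stood against 9.70, 8.11, 19.2 and 16.5 for the 17-base probe. The longer probe was the brighter one in most miRNAs of this design. Among those well above background with a pair of probes that differ by 1 base, it was brighter in 15 of 22 on M0_sham replicate 1, 10 of 13 on M0_sham replicate 2, 37 of 41 on M1_OA replicate 1 and 37 of 44 on M1_OA replicate 2. Where the longer probe was brighter, the shorter one reached a median of 34.1%, 63.6%, 23.8% and 22.7% of it. The shorter probe was at or below 0 in 1, 0, 4 and 4 of these pairs, those of rno-miR-92a-3p on the M1_OA arrays included.

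**Figure D2:**
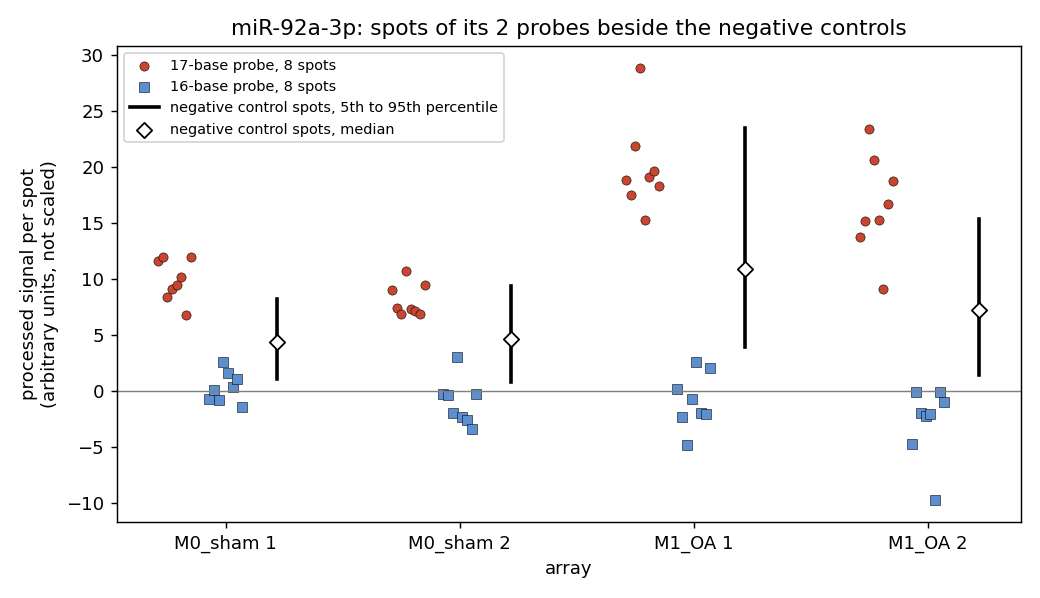
Processed signal of each spot (y axis, arbitrary units, not scaled) of the 17-base and the 16-base probe of rno-miR-92a-3p on the 4 arrays, beside the median (diamond) and the 5th to 95th percentile (bar) of the 434 negative control spots. The 17-base spots lie above the control median on every array, partly overlapping the control bar, and the 16-base spots lie around 0.

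The negative control spots, which carry no miRNA probe, were themselves brighter in M1_OA. Their medians were 4.35 and 4.69 in M0_sham and 10.9 and 7.21 in M1_OA, so the mean of the M1_OA medians was 2.00 times that of M0_sham. The mean signal of the 17-base probe was 8.90 ± 1.12 (SD, n = 2) in M0_sham and 17.8 ± 1.96 (SD, n = 2) in M1_OA, also 2.00 times. On M0_sham replicate 1, 3 of the 434 control spots (0.691%) were at least as bright as the mean of the 17-base probe, on M0_sham replicate 2 it was 50 (11.5%), on M1_OA replicate 1 37 (8.53%) and on M1_OA replicate 2 16 (3.69%). Of the control spots, 42, 2, 96 and 29 carried the well-above-background flag on the same 4 arrays. The medians over all miRNA spots overlapped between the groups, at -1.81 and -3.45 in M0_sham and -2.09 and -2.84 in M1_OA. The part of the rise in the control spots in the result for rno-miR-92a-3p was not tested.

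After the software's own subtraction of the negative control level at each spot, the 17-base probe kept mean signals of 5.75 and 3.23 in M0_sham and 7.56 and 8.02 in M1_OA. The groups did not overlap, and their means were 4.49 ± 1.78 and 7.79 ± 0.325 (SD, n = 2 each), 1.74 times higher in M1_OA. Summed with the 16-base probe, as the signals above were, the values after this step were 1.94 and -2.15 in M0_sham and -5.40 and -1.78 in M1_OA, below 0 on 3 arrays, with overlapping groups and the lower mean in M1_OA (-3.59 against -0.103). The direction after control subtraction thus differed between the 17-base probe and the sum. All 8 spots of the 17-base probe stayed above 0 on every array, the lowest being 1.65, on M0_sham replicate 2. With 2 arrays a group, the smallest two-sided p of an exact permutation test is 0.333. The 16-base probe averaged -3.80, -5.38, -13.0 and -9.81 after the same step.

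rno-miR-20a-5p, an arm of the same transcript with the miR-17 seed, was next above the background of its spots, in M1_OA. Its summed signals were -3.48 and -7.58 in M0_sham and 8.04 and 5.02 in M1_OA, and the groups do not overlap. Its 19-base probe had 8 and 7 of 8 spots positive and significant on the M1_OA arrays and 1 and 0 on the M0_sham arrays. More than 0.5 of the spots of a probe passed that test on both M1_OA and neither M0_sham array for 38 of the 758 miRNAs (5.01%), rno-miR-20a-5p among them. The spots of its 19-base probe ran from 2.95 to 17.4 (median 6.72) on M1_OA replicate 1 and from 0.690 to 8.71 (median 4.03) on M1_OA replicate 2. Both medians are under the median of the negative control spots on the same array.

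**Figure D3:**
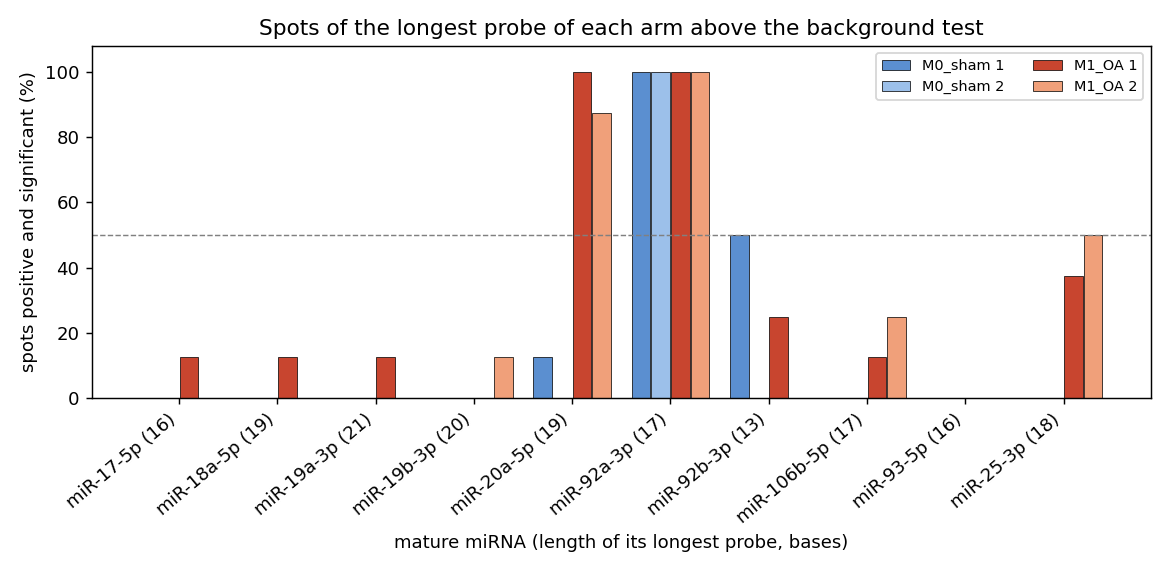
Share of the spots of each arm's longest probe that were positive and significant against the local background (y axis, percent of 8 spots, or of 4 for rno-miR-92b-3p), by array; the dashed line marks 50%. rno-miR-92a-3p is at 100% on all 4 arrays and rno-miR-20a-5p is above 50% on the M1_OA arrays.

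For rno-miR-25-3p, 3 and 4 of 8 spots of the 18-base probe passed on M1_OA replicates 1 and 2 and 0 on both M0_sham arrays, with M1_OA medians of 1.47 and 1.81. One spot at 52.1 on M1_OA replicate 1, marked as an outlier and left out of the mean, was the only well-above-background spot of that probe. Taking all 9 arms other than rno-miR-92a-3p, 8 and 1 of 144 spots were positive and significant on the M0_sham arrays (5.56% and 0.694%) and 20 and 17 on the M1_OA arrays (13.9% and 11.8%). Over all 12128 miRNA spots the shares were 12.8% and 6.58% in M0_sham and 18.4% and 13.0% in M1_OA. On each array the 9 arms were thus below the array's own share, and both shares were higher in M1_OA.

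Unscaled signals put both M1_OA arrays above both M0_sham arrays for 5 of the 10 arms (rno-miR-19b-3p, rno-miR-20a-5p, rno-miR-92a-3p, rno-miR-106b-5p and rno-miR-25-3p), and below for rno-miR-92b-3p. Over all 758 miRNAs that order was found for 21.0% (above) and 23.2% (below). For 5 of these 6 arms it was an order among values not well above background.

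The contrast of M1_OA against M0_sham asks how vesicle miRNA differs between the inflammatory, OA-derived macrophages and the resting ones. It could be fitted for rno-miR-92a-3p, the 1 arm among the 41 miRNAs that were well above background on both arrays of a group. The 75th percentile of the 11 miRNAs called on all 4 arrays was 151 and 202 in M0_sham and 657 and 448 in M1_OA. It lay between 2 miRNAs, not the same 2 on every array. These were rno-miR-3473 and rno-miR-3584-5p (145 and 156) on M0_sham replicate 1, and rno-miR-6216 and rno-miR-3473 (359 and 956) on M1_OA replicate 1. Scaling thus multiplied signals by 2.04 and 1.52 in M0_sham and by 0.468 and 0.687 in M1_OA. The signals of rno-miR-92a-3p became 20.8 and 10.8 in M0_sham and 8.58 and 10.0 in M1_OA. The groups do not overlap, but the lowest M0_sham value and the highest M1_OA value are close, and M0_sham replicate 1 stands apart from the other 3. The log2 difference was -0.69 ± 0.39 (SE, n = 2 and 2; limma, Benjamini-Hochberg adjusted p = 0.230), so rno-miR-92a-3p did not pass. Of the 41, 26 passed in either direction (63.4%), and 4 as lower (9.76%). For most miRNAs that passed as higher, both M0_sham values were at the floor to which low values were set (log2 2.98). Their M0_sham values thus had no spread. The filter and the floor therefore shape these shares, and also the spread that limma shares across the 41.

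The sign of the difference of rno-miR-92a-3p depended on the scaling. Without scaling rno-miR-92a-3p was higher in M1_OA by a log2 of 0.88 ± 0.27 (SE; limma, adjusted p = 0.0314), and scaled to the labelling spike-ins by 1.35 ± 0.19 (SE; limma, adjusted p = 0.00488). In both of these fits M0_sham replicate 2 was below the lowest called signal and entered at that floor, while the other 3 arrays were above it. The floor narrows the spread within M0_sham. rno-miR-92a-3p also entered the fit through M1_OA, the group where it is higher in these settings. The 2 p-values are therefore not read as support for a rise. Under these 2 settings 78.0% and 82.9% of the 41 miRNAs passed as higher, with medians over the 41 of 1.96 and 2.56. The median was 0.62 in the scaling to the 75th percentile. Of the 41 miRNAs, 29 entered the fit through M1_OA alone, rno-miR-92a-3p among them, and 24 of these were called on neither M0_sham array, so the medians are given as a description and nothing is read from the place of rno-miR-92a-3p against them.

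With normexp background correction rno-miR-92a-3p passed as lower (-1.03; limma, adjusted p = 8.16e-04), in a fit where 25 of the 41 passed as lower and the median was -0.79. In the authors' deposited table its values were 0.872 and -1.86 in M0_sham and -1.76 and -1.66 in M1_OA. There M0_sham replicate 1 was high and the other 3 arrays were alike. Without M0_sham replicate 1 the scaled log2 difference was -0.013 (limma, adjusted p = 0.972).

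**Figure D4:**
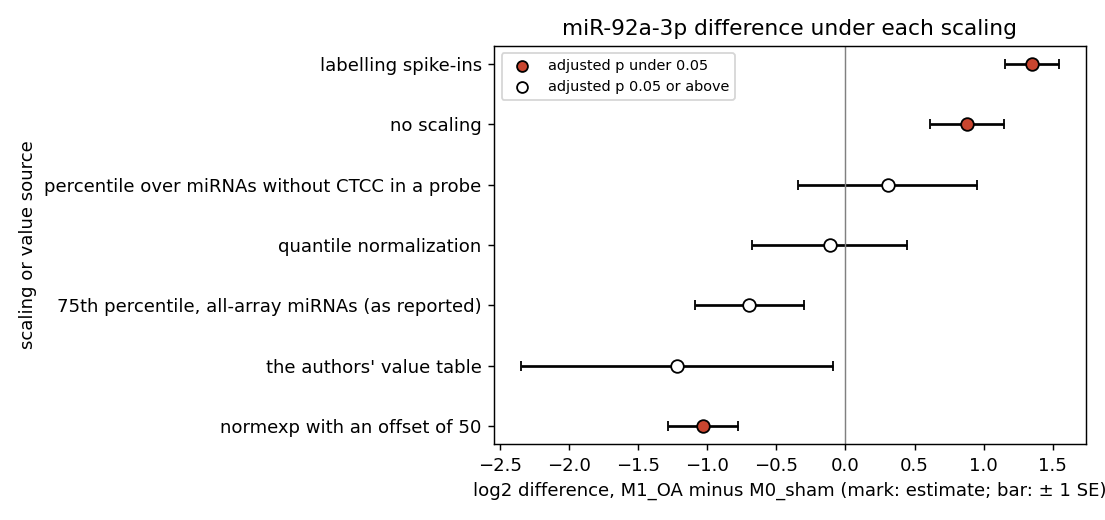
Log2 difference of rno-miR-92a-3p, M1_OA minus M0_sham (x axis; mark, estimate; bar, ± 1 SE; n = 2 arrays a group), under each scaling or source of values, filled where the adjusted p was under 0.05. It runs from -1.22 in the authors' table to 1.35 with the spike-ins and crosses 0.

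A fit over all 758 miRNAs without the detection filter called 0 of the 10 arms at an adjusted p of 0.05 (limma; 0 also at an unadjusted p of 0.05, and 1 without scaling), beside 2 of 758 miRNAs (0.264%), or 25 (3.30%) without scaling. In it the scaled values of the 9 other arms were at the floor on all 4 arrays, most miRNAs had no spread at all, and its p-values are not reliable.

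In base composition the called arm lay between the others. The 17-base probe of rno-miR-92a-3p holds 70.6% G and C, against 33.3% to 56.3% in the probes of the arms with 2 probes other than rno-miR-92a-3p, and 81.8% to 90.0% in the shorter probes of rno-miR-92b-3p, which were not called. Its part in the signal was not tested. Of the 692 other mature rat miRNAs in the RefSeq table, rno-miR-92b-3p and rno-miR-25-3p were the 2 nearest to the stretch the 17-base probe covers, with 2 mismatches each, and no further one had fewer than 6. Binding of these 2 to the probe of rno-miR-92a-3p was not tested, and their own probes gave no call.

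The 13 other arms of the same hairpins and of the repeat hairpins, the strands usually degraded, had 0 members well above background, and 12 of the 13 were at or below 0 on all 4 arrays. Of 15 paralogues and same-seed relatives listed, 9 were matched by name on the array and, beside 7.26% of all 758 miRNAs, 1 was well above background. That was rno-miR-32-3p, the partner strand of the same-seed guide rno-miR-32-5p, with 53.5 and 79.1 in M0_sham and 59.7 and 113 in M1_OA. It was called on all 4 arrays, and its own groups overlap.

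Among the 11 miRNAs called on all 4 arrays, the pattern most like that of rno-miR-92a-3p was that of rno-miR-3584-5p, with a root mean square difference of 0.45 log2 units over the 4 arrays after each miRNA was centred on its own mean. miR-1249 (0.54) and rno-miR-672-5p (0.64) followed. Relative to its mean, rno-miR-92a-3p stood at -0.21 and -0.73 in M0_sham and at 0.64 and 0.31 in M1_OA, and rno-miR-3584-5p at -0.52 and 0.026 in M0_sham and at 0.26 and 0.23 in M1_OA. The 2 lay furthest apart on M0_sham replicate 2, where rno-miR-92a-3p was not called. The 3 root mean square differences are of the same order as the departures of rno-miR-92a-3p from its own mean, so no shared pattern is read from this ranking. The measure does not change with the scaling between arrays, and it is a description over 4 arrays.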

How the data were processed

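Spot intensity comes from the deposited scanner output of Agilent Feature Extraction 10.7.1.1, a version named in the submitters' processing notes. The file headers show background subtraction with spatial detrending, marking of outlier spots and an interpolated negative control level; the deposited intensity was not scaled between arrays. Per the labels' protocols, 0.2 µg RNA was labelled with Cy3; the kit described there is one for cRNA, and how it applies to miRNA is not given in the sources used here. The authors' deposited table of log2 values has its floor at -3.32; its normalization is not given in the sources used here.

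Marked spots were dropped, the others averaged per probe, and probes summed per miRNA (1806 probes, 12128 spots, 758 miRNAs). Each array was divided by its 75th percentile among the 11 miRNAs called on all 4 and multiplied by the geometric mean of these percentiles; values under 7.90 were set to that floor, and log2 was taken. The 41 miRNAs called on both arrays of a group were tested with limma 3.58.1 in R 4.3.3 (lmFit, eBayes, two-sided, Benjamini-Hochberg over the 41, threshold 0.05). The fit was also run on simulated data with normal noise and planted shifts. That run did not repeat the detection filter, the floor or the scaling, so it does not bear on them. The number of arrays limits the precision. Normexp used an offset of 50. Plots were drawn with matplotlib 3.10.9.

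The members, lists, tests and alternatives were chosen with earlier results of these data known. All 10 members are named; the 2 lists of related arms give values for those called, and the 3 miRNAs nearest in pattern are named.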

Additional observations from a re-analysis of the deposited data

How the results depend on the processing

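The difference of miR-92a-3p (log2 -0.69) turned without scaling and with the percentile over all miRNAs, which is 1 on every array and so scales nothing (0.88 each), with the spike-ins (1.35) and with the percentile over the 6 miRNAs called on all arrays whose probes lack CTCC (0.30, limma adjusted p = 0.701, an alternative added with the data known). It passed as lower with normexp (-1.03). It kept its sign without passing in the other alternatives that gave a value, from -1.22 in the authors' table to -0.11 with quantile normalization, and from -0.91 to -0.013 with each array left out. The 16-base probe alone was at the floor on all 4 arrays, and miR-92a-3p was not in the fit over miRNAs called on all 4, so neither gave a value. The replicate numbers are a label only: the deviations of same-numbered arrays correlated with r = 0.308 across the 41 miRNAs, and with the replicate block the difference was -0.69 (limma, adjusted p = 0.0724), with 19 higher and 7 lower calls.

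The fit's calls, 22 higher and 4 lower, were 32 and 0 without scaling and with the percentile over all miRNAs, 34 and 0 with the spike-ins, 4 and 25 with normexp, 21 and 0 without CTCC probes, 17 and 2 in the unmoderated model, 1 and 2 among miRNAs called on all 4 arrays and 2 and 0 without the detection filter. In limma at an unadjusted p of 0.05, lower calls were 0 in the 4 scaling settings with 0, 10 without the detection filter and 3 without M1_OA replicate 1. With each array left out, higher calls ran from 13 to 21 and lower calls from 0 to 9; without M0_sham replicate 2 they were 13 and 9, and without M1_OA replicate 1 21 and 0. The 1 arm well above background became 3 with any flagged spot (miR-20a-5p and miR-25-3p added) and 2 with the positive and significant flag (miR-20a-5p added). By the latter flag 145 of the 758 miRNAs (19.1%) passed on at least 1 array, so 2 of 10 is near the array's own share. The arms added by any flagged spot had 1 such spot each, on M1_OA replicate 1, and that of miR-25-3p was marked as an outlier. The share of all miRNAs with any flagged spot was not computed. Without the detection filter 0 arms passed, with or without scaling.

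A limit of these arrays is signal over background: 9 of the 10 arms were not well above it on any array by the call used here.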
